A study of Bos taurus with 15 samples.

Results

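Bovine oocytes that had been plunged into liquid nitrogen in 6.6 M cryoprotective agent were set against oocytes plunged in 5.6 M agent, to ask whether the concentration of the agent left a mark on the oocyte's mRNA. The comparison used 6 of the 15 RNA sequencing libraries of the series, chosen by their labelled treatment, with 3 libraries at 6.6 M and 3 at 5.6 M, and covered every gene in the table. The other libraries were 3 from oocytes plunged into liquid helium at 6.6 M, 3 from helium at 5.6 M and 3 from fresh oocytes. All oocytes shared the same culture: maturation in vitro for 22 to 24 h at 38.5 °C, then removal of the cumulus cells with 100 IU/mL hyaluronidase. The title of the series speaks of immature oocytes, but the cell type label names oocytes matured in vitro. RNA was taken from single cells per the labels, with cDNA amplified before library building. The labels do not say which agents made up the cryoprotectant, how long the oocytes were exposed, or whether the libraries of a group came from separate animals or cultures. A p-value here speaks only of how much these libraries vary, and part of that may be technical.

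Vitrification cools cells so fast, in so concentrated a solution, that water solidifies as a glass without forming ice crystals. A higher concentration of permeating agent helps the glass to form, and it also raises osmotic and chemical stress on the cell, which is why protocols differ in how much they use. A full-grown oocyte is nearly silent in transcription, so its mRNA pool is mostly a stock laid down during growth that is stored, translated or degraded during meiotic maturation. The meiotic spindle, the cortical actin, the mitochondria and the lipid stores are the structures best known to be hurt by cryopreservation, and cattle oocytes are rich in lipid.

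The libraries held 1987931, 2613014 and 7392972 counts at 6.6 M, and 2333545, 2291349 and 1790900 counts at 5.6 M. Library 3 at 6.6 M thus stood apart in depth. It also had the lowest share of counts on the mitochondrial genome, so values without it are given for gene lists and library shares that moved when it was left out. Of the 18 oocyte markers looked for, 15 were in the table and all 15 had counts in every one of the 6 libraries. Their summed level was 9225, 8371 and 6959 CPM (a share of all counts in its library) at 6.6 M, against 6738, 7391 and 8046 CPM at 5.6 M. The cumulus and granulosa cell markers, 34 of 36 in the table, summed to 427, 400 and 407 CPM at 6.6 M, against 427, 428 and 436 CPM at 5.6 M. Most of that signal was STAR, HAS2 and PTGS2, while the defining markers FSHR, FOXL2 and AMH had 0 counts in all 6 libraries and CYP19A1 had 0 to 8. The 27 blood and immune markers in the table summed to 22.6, 13.0 and 11.4 CPM at 6.6 M, against 19.3, 17.5 and 17.9 CPM at 5.6 M, with HBB at 0 counts throughout and PTPRC at 2 counts in 1 library. In such whole-library measurements, fewer cells of a type and less RNA per cell cannot be told apart. The libraries of both concentrations thus carried the markers of the labelled cell type.

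No transcript passed the test between 6.6 M and 5.6 M. Of 8441 genes with enough counts, 0 (0%) had a Benjamini-Hochberg adjusted p under 0.05 in edgeR's quasi-likelihood test, and the smallest adjusted p was 0.901. DESeq2 also called 0. At an unadjusted p under 0.05 there were 166 genes (1.97%) by edgeR, of which 85 (1.01%) were higher and 81 (0.96%) lower at 6.6 M, and 172 by DESeq2. If no gene differed, a fraction of about 0.05 of the genes would fall there on average. The 166 genes were fewer than that and are no sign of a difference. The share of those 166 that were higher was 51.2%, and with upper-quartile scaling in place of the trimmed mean of M-values (TMM) the share was 41.1%. The log2 fold change had a median of 0.02 over all genes tested, with quartiles of -0.15 and 0.18. It exceeded 1 in size for 116 genes, 63 of them higher and 53 lower at 6.6 M. The median absolute difference between the group means of 3 libraries was 0.16 log2 CPM, and the median SD between single libraries of one concentration was 0.35 log2 CPM. A mean of 3 libraries varies less than a single library, so these values are given as a description and do not compare the concentrations with the spread. Libraries of different concentrations resembled each other as closely as libraries of the same one, with correlations of log2 CPM across genes of 0.95 to 0.974 (9 pairs) between the concentrations and 0.948 to 0.975 (6 pairs) within them.

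**Figure D1:**
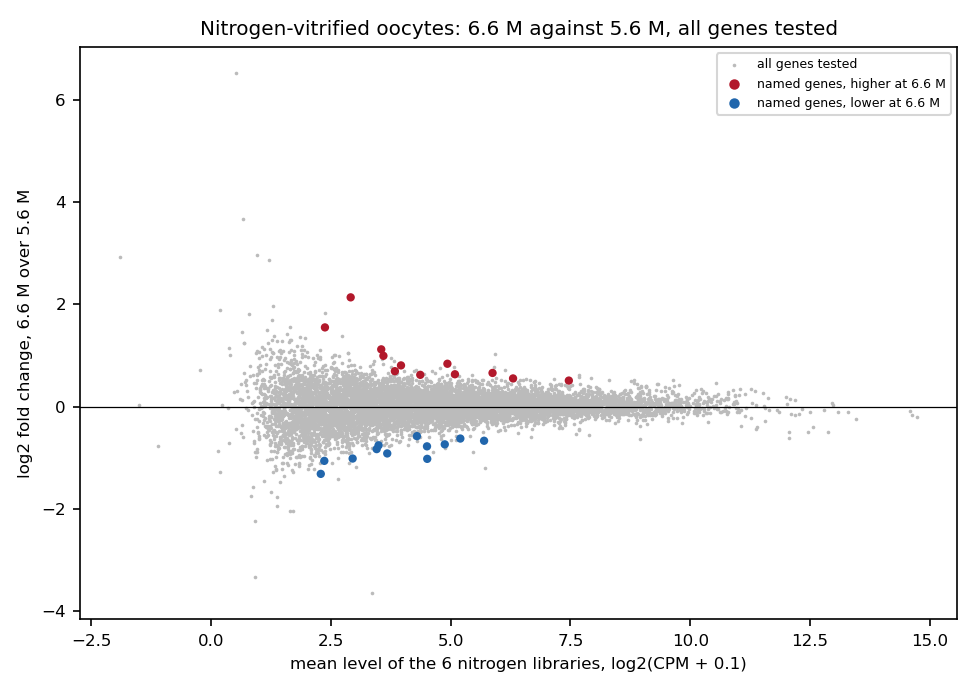
Log2 fold change of 6.6 M over 5.6 M (vertical axis) against the mean level of the 6 nitrogen libraries as log2(CPM + 0.1) (horizontal axis) for the 8441 genes tested, each a grey point, with the 12 named genes higher at 6.6 M in red and the 12 lower in blue. The cloud is centred on 0 and narrows with level, and none of its points passed the test.

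How large a difference these libraries could have hidden was read from the interval of each gene. A 95% interval of the log2 fold change that lay wholly within 1 of 0, meaning that a doubling or a halving was outside it, was found for 5564 of the 8441 genes (65.9%). For 1803 genes the interval lay within a 1.5-fold difference in either direction. Precision followed the transcript level, given here as the authors' FPKM (counts per unit of gene length and of library total). Among the 1096 genes at 100 FPKM or more, 95.5% had an interval within 1, the median standard error was 0.22, and 0 genes had a log2 fold change over 1 in size. Among the 2370 genes between 1 and 5 FPKM, 30.4% had such an interval and the median standard error was 0.43. Rare transcripts could therefore differ by more than 2-fold without being seen at this depth, while for the abundant maternal mRNAs such a difference lay outside the interval in most cases. BTG4, which brings the deadenylase complex to maternal mRNAs during maturation, was the most abundant transcript with a symbol, at 31411 FPKM at 6.6 M and 36072 FPKM at 5.6 M, and its log2 fold change was -0.21 (95% interval -0.88 to 0.47).

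**Figure D2:**
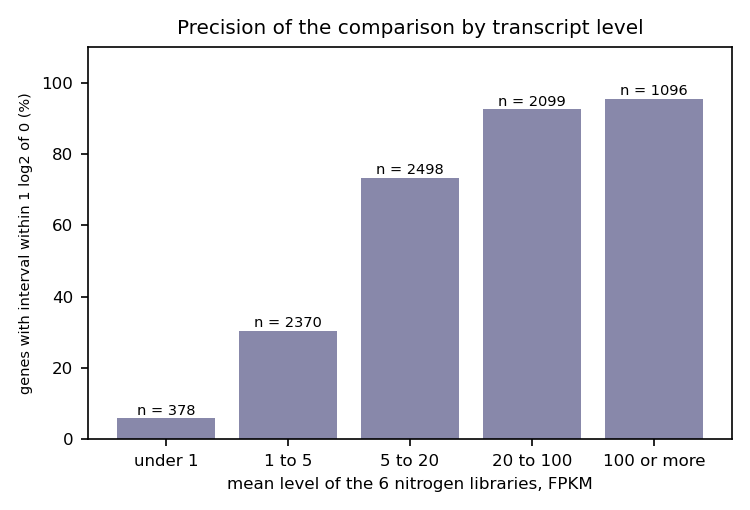
Share of genes (vertical axis, percent, from 0) whose 95% interval of the log2 fold change between 6.6 M and 5.6 M lay within 1 of 0, by mean FPKM of the 6 nitrogen libraries (horizontal axis), with the number of genes above each bar. The share climbs from 5.82% below 1 FPKM to 95.5% at 100 FPKM or more.

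Transcripts were named by a rule: a symbol, at least 5 FPKM in the higher group, no overlap between the 3 libraries of each concentration, and then the 12 smallest p in each direction, since none passed. Over all genes tested, 511 (6.05%) had libraries that did not overlap, 287 (3.4%) of them higher and 224 (2.65%) lower at 6.6 M. The rule chose these genes for their differences, so the values below describe them and test nothing. Levels of single genes are TMM-scaled CPM, and the interval after each log2 fold change is the unadjusted 95% interval of that gene.

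BRAP, a ubiquitin ligase that tunes Ras signalling to the MAP kinases (chromosome 17, 57563200 to 57592743 on UMD3.1), had 37.1, 45.9 and 34.3 CPM at 6.6 M, against 19.1, 23.2 and 23.2 CPM at 5.6 M. Its log2 fold change was 0.84 (0.36 to 1.32), the smallest p among the named genes that were higher. ATG4C, a protease that trims the ubiquitin-like proteins of the autophagosome membrane, had 13.7, 15.03 and 19.1 CPM at 6.6 M and 8.89, 8.98 and 4.06 CPM at 5.6 M (log2 fold change 1.12, 0.43 to 1.81). The Golgi was represented by a pair of transcripts. TMF1, a Golgi-bound coiled-coil protein, had 66.6, 70.3 and 77.98 CPM at 6.6 M and 48.3, 34.5 and 53.99 CPM at 5.6 M. GOLIM4, a membrane protein that cycles between Golgi and endosomes, had 35.1, 42.7 and 45.8 CPM at 6.6 M and 20.8, 31.2 and 28.4 CPM at 5.6 M. Their log2 fold changes were 0.66 (0.24 to 1.08) for TMF1 and 0.63 (0.14 to 1.12) for GOLIM4. SLC30A5, which carries zinc into the secretory pathway, had 17.8, 16.7 and 18.3 CPM at 6.6 M, in a narrow band, and 12.3, 10.9 and 9.29 CPM at 5.6 M. CD164, a sialomucin of endosomes and the cell surface, had 82.9, 106 and 91.9 CPM at 6.6 M and 55.5, 70.4 and 66.2 CPM at 5.6 M. ARHGAP18, a GTPase-activating protein that acts on the actin cytoskeleton, averaged 37.9 FPKM at 6.6 M and 26.6 FPKM at 5.6 M. In CPM it had 182, 222 and 219 at 6.6 M and 143, 147 and 147 at 5.6 M, a log2 fold change of 0.51 (0.10 to 0.92).

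The other 5 genes on the higher side had varied roles. SNAPC3, a subunit of the complex that activates small nuclear RNA genes, had 16.8, 20.3 and 22.04 CPM at 6.6 M and 13.1, 10.4 and 10.4 CPM at 5.6 M. LARP4, which binds poly(A) tails and stabilises mRNA, had 15.8, 13.8 and 18.7 CPM at 6.6 M and 12.3, 8.04 and 3.48 CPM at 5.6 M. TRIM36, a ubiquitin ligase, had 24.4, 25.6 and 24.6 CPM at 6.6 M and 15.2, 13.7 and 19.7 CPM at 5.6 M. These 3 genes had log2 fold changes between 0.62 and 0.99. PMF1, a part of the kinetochore's MIS12 complex, had 9.66, 8.53 and 4.74 CPM at 6.6 M and 2.54, 0.473 and 4.64 CPM at 5.6 M (log2 fold change 1.55, 0.46 to 2.64). Its lowest library at 6.6 M and its highest at 5.6 M all but touched. MTHFD2L, a mitochondrial enzyme of folate metabolism (chromosome 6, 90842934 to 90985937 on UMD3.1), varied widely, with 4.58, 8.94 and 22.2 CPM at 6.6 M and 1.69, 3.78 and 3.48 CPM at 5.6 M. Its log2 fold change was 2.14 (0.43 to 3.85), with library 3 at 6.6 M far above the others of that group. A value without that library is not given for MTHFD2L. By edgeR its adjusted p was 0.99998, and 0.00843 when genes of low counts were kept in the test. Single libraries also stood apart in helium at 5.6 M (16.5, 4.79 and 2.29 CPM) and in fresh oocytes (6.01, 4.02 and 19.8 CPM).

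**Figure D3:**
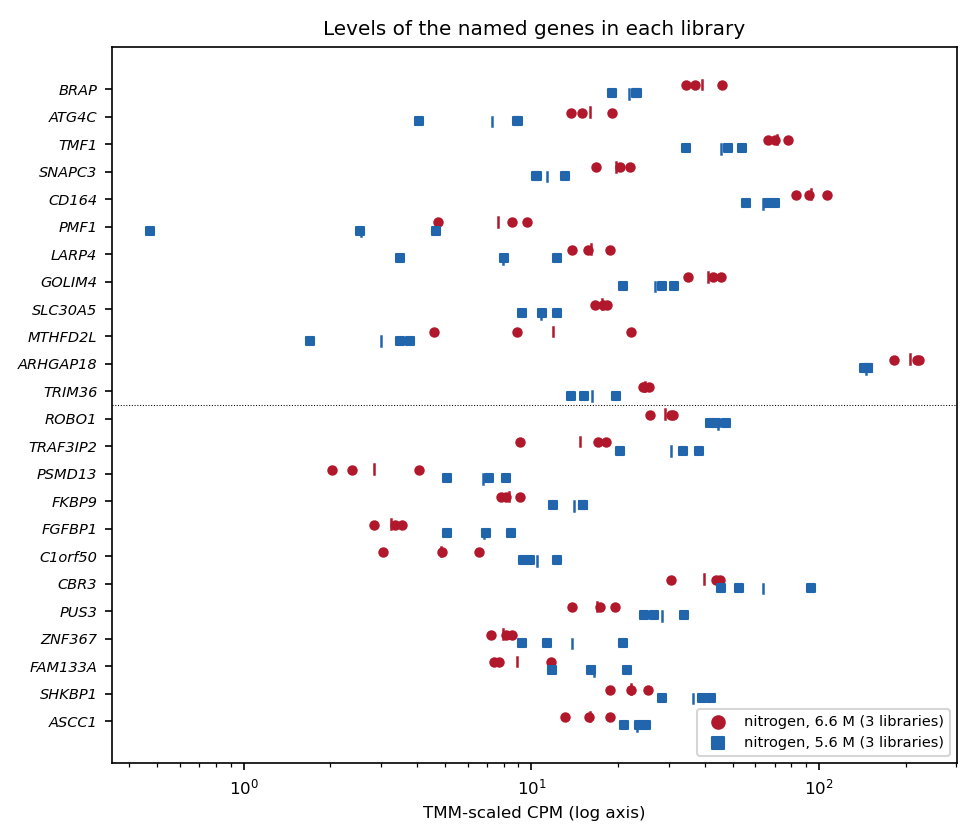
TMM-scaled CPM (horizontal log axis) of the 24 named genes in each nitrogen library, 6.6 M as red circles above 5.6 M as blue squares in every row, with a short bar at each mean (n = 3 each); the dotted line parts the 12 genes higher at 6.6 M from the 12 lower. In PMF1 the concentrations all but touch, with 4.74 CPM at 6.6 M next to 4.64 CPM at 5.6 M, while in SLC30A5 the lowest library at 6.6 M, at 16.7 CPM, stands clear of the highest at 5.6 M, at 12.3 CPM.

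On the lower side, ROBO1, a receptor for the SLIT guidance cues, had 31.01, 30.5 and 25.8 CPM at 6.6 M, against 47.4, 43.96 and 41.8 CPM at 5.6 M. Its log2 fold change of -0.62 (-1.02 to -0.23) had the smallest p among the named genes that were lower. TRAF3IP2, an adaptor of interleukin-17 receptors (chromosome 9, 39309720 to 39341546 on UMD3.1), had 9.15, 17.1 and 18.1 CPM at 6.6 M and 38.1, 33.6 and 20.3 CPM at 5.6 M (log2 fold change -1.02, -1.68 to -0.36). PSMD13, a subunit of the proteasome's regulatory particle, had 4.07, 2.03 and 2.37 CPM at 6.6 M and 5.08, 7.09 and 8.13 CPM at 5.6 M (log2 fold change -1.31, -2.17 to -0.45). That was the largest negative log2 fold change of the 12, on counts that were low in every library. CBR3, a carbonyl reductase, was the most abundant, at 37.1 FPKM at 6.6 M and 59.2 FPKM at 5.6 M. In CPM it had 43.7, 30.5 and 45.2 at 6.6 M and 45.7, 52.5 and 93.5 at 5.6 M, with 1 library at 5.6 M far above the others.

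FKBP9, a folding enzyme of the endoplasmic reticulum, had 9.15, 8.12 and 7.81 CPM at 6.6 M and 11.9, 15.1 and 15.1 CPM at 5.6 M. FGFBP1, which frees fibroblast growth factors from the matrix, had 3.56, 2.84 and 3.35 CPM at 6.6 M and 5.08, 8.51 and 6.97 CPM at 5.6 M. PUS3, which makes pseudouridine in tRNA, had 17.3, 19.5 and 13.8 CPM at 6.6 M and 24.6, 34.03 and 26.7 CPM at 5.6 M. Log2 fold changes were -0.75 for FKBP9, -1.06 for FGFBP1 and -0.78 for PUS3. ASCC1, of a transcriptional coactivator complex, had 18.8, 15.8 and 13.1 CPM at 6.6 M and 23.7, 25.1 and 20.9 CPM at 5.6 M. SHKBP1, a partner of an endocytic adaptor of growth factor receptors, had 25.4, 18.7 and 22.2 CPM at 6.6 M and 41.9, 39.2 and 28.4 CPM at 5.6 M. ZNF367, a zinc finger protein, had 8.13, 8.53 and 7.25 CPM at 6.6 M and 20.8, 11.3 and 9.29 CPM at 5.6 M. C1orf50 (log2 fold change -1.01) and FAM133A (-0.91) completed the 12. At 6.6 M C1orf50 had 3.05, 4.87 and 6.56 CPM, against 9.32, 12.3 and 9.87 CPM at 5.6 M, and FAM133A had 11.7, 7.72 and 7.39 CPM at 6.6 M, against 16.1, 11.8 and 21.5 CPM at 5.6 M.

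INTU, a planar cell polarity protein needed for building cilia (chromosome 17, 30324842 to 30404702 on UMD3.1), had the smallest p of all 8441 genes and lay below the level the naming rule asked for, so it was picked after its values were seen. It had 7.62, 7.72 and 8.65 CPM at 6.6 M, against 2.96, 1.89 and 1.74 CPM at 5.6 M, from 15, 19 and 62 counts at 6.6 M and 7, 4 and 3 counts at 5.6 M. The 6.6 M libraries lay close together, beside the fresh oocytes (9.35, 6.03 and 6.74 CPM), and all 3 libraries at 5.6 M lay below them. The log2 fold change was 1.84 ± 0.38 (SE, n = 3 each), with an adjusted p of 0.901 by edgeR's quasi-likelihood test. Helium-vitrified oocytes had 7.28, 5.61 and 9.31 CPM at 6.6 M and 6.31, 6.48 and 7.68 CPM at 5.6 M, a log2 fold change of 0.12 ± 0.27 (SE, n = 3 each).

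Gene groups were then examined, as 26 lists of 1322 symbols, 1138 of them in the table. No member of any list passed the test, against 0% of all genes tested. Each list is described by how many tested members lay above or below 0 and by its median log2 fold change, beside 4436 above and 4005 below and a median of 0.02 over all genes tested. The members named are those with the smallest p in each direction, and a few others singled out for their role after their values were seen. None of the list medians was tested.

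**Figure D4:**
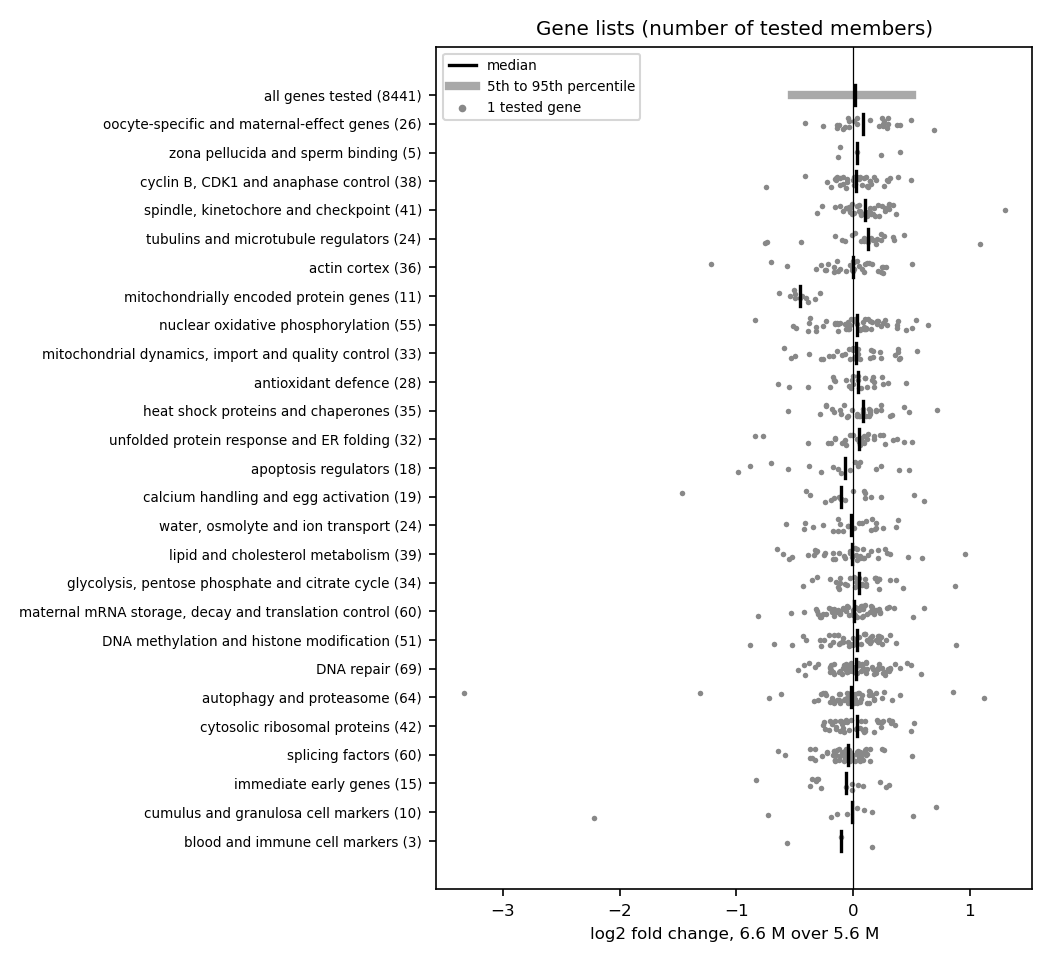
Log2 fold change of 6.6 M over 5.6 M (horizontal axis) of every tested member of the 26 gene lists, with the number tested in parentheses, below the 5th to 95th percentile of all genes tested. Black bars are medians; that of the mitochondrially encoded protein genes sits at -0.46 and those of all other lists lie between -0.10 and 0.12.

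Genes that mark the oocyte itself were expressed at both concentrations, and none passed the test. Of the oocyte-specific and maternal-effect genes, 26 of 29 in the table were tested, 16 above and 10 below 0, with a median of 0.09. GDF9, a growth factor that the oocyte sends to its cumulus cells, had 491, 476 and 385 CPM at 6.6 M and 426, 598 and 390.1 CPM at 5.6 M (log2 fold change -0.07, -0.52 to 0.39). Its partner BMP15 had 503, 774 and 439.7 CPM at 6.6 M and 613, 719 and 369 CPM at 5.6 M (0.01, -0.55 to 0.57). OOEP, of the maternal complex under the oocyte's membrane, had 559.7, 589.8 and 711 CPM at 6.6 M and 438, 459 and 621 CPM at 5.6 M (0.29, -0.16 to 0.75). For all 3 genes the libraries of the concentrations overlapped. UCHL1, a deubiquitinase abundant in oocytes, and LHX8, a transcription factor of early follicles, were the 2 members whose libraries did not overlap, both higher at 6.6 M, against 3.4% of all genes. UCHL1 had 414, 366 and 337 CPM at 6.6 M and 273, 334 and 331 CPM at 5.6 M, with the lowest at 6.6 M just above the highest at 5.6 M. NLRP9, a relative of the maternal-effect NLRP genes, had the smallest p on the lower side, with 225, 191 and 169 CPM at 6.6 M and 221, 254 and 222 CPM at 5.6 M. Of the zona pellucida and sperm-binding genes, 5 of 5 were tested, 3 above and 2 below 0 (median 0.03). The coat glycoprotein ZP2 had 2684, 3145 and 2230.0 CPM at 6.6 M and 2206, 3061 and 2626 CPM at 5.6 M (0.03, -0.40 to 0.46), and ZP4 had 854, 979 and 944 CPM at 6.6 M and 482, 878 and 744 CPM at 5.6 M (0.40, -0.25 to 1.05). CD9, the egg membrane protein needed for fusion with sperm, had 24.4, 23.2 and 20.1 CPM at 6.6 M and 24.6, 34.98 and 13.4 CPM at 5.6 M.

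Genes of meiotic progression and the spindle were expressed at both concentrations, and none passed. In the list for cyclin B, CDK1 and anaphase control, 38 of 41 genes were tested, 22 above and 16 below 0 (median 0.02). CCNB1, a cyclin that drives M phase during meiotic maturation, had 1784, 2059.5 and 1638 CPM at 6.6 M and 1478, 1689.8 and 1754 CPM at 5.6 M (0.16, -0.30 to 0.61). CCNB2 was the only tested member whose libraries did not overlap, against 3.4% of all genes higher without overlap. It had 431, 491 and 445 CPM at 6.6 M and 369, 345 and 427 CPM at 5.6 M (0.26, -0.10 to 0.62). MOS, the kinase that holds the mature egg in metaphase, had 695, 402 and 428 CPM at 6.6 M and 267, 254 and 561 CPM at 5.6 M, with one high library in each group (0.50, -0.33 to 1.32). CDC23, a subunit of the anaphase-promoting complex, had the smallest p on the lower side (-0.41, -1.11 to 0.29). In the list for the spindle, kinetochore and checkpoint, 41 of 44 were tested, 28 above and 13 below 0 (median 0.10), and 3 were higher and 1 lower without overlap, against 3.4% and 2.65% of all genes. SMC1B, the meiotic cohesin subunit, had 687, 849 and 810.4 CPM at 6.6 M and 676, 587 and 637 CPM at 5.6 M (0.30, -0.11 to 0.72). SMC3, its ring partner, had 1312, 1472 and 1429 CPM at 6.6 M and 1169, 1076 and 1252 CPM at 5.6 M (0.27, -0.18 to 0.72). CENPF, a kinetochore protein, had 2734, 3064 and 2435 CPM at 6.6 M and 2274, 2073 and 2161 CPM at 5.6 M (0.34, -0.25 to 0.93). The checkpoint kinase BUB1B lay on the lower side by a small step, with 260.3, 286 and 290.2 CPM at 6.6 M and 291, 328 and 312 CPM at 5.6 M. SKA2, of the complex that ties kinetochores to microtubules, had the smallest p on the lower side, with 21.9, 22.7 and 17.3 CPM at 6.6 M and 21.6, 35.9 and 18 CPM at 5.6 M (-0.31, -1.02 to 0.40). AURKA, the spindle pole kinase, had 5465, 4869 and 3293 CPM at 6.6 M and 3839, 4113 and 4387 CPM at 5.6 M, and its 95% interval was -0.35 to 0.63.

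Cytoskeletal genes lay on both sides of 0. Tubulins and microtubule regulators had 24 of 31 tested, 17 above and 7 below 0 (median 0.12, and 0.26 without library 3 at 6.6 M). KATNA1, the catalytic subunit of the microtubule-severing enzyme katanin, had 49.3, 46.7 and 79.8 CPM at 6.6 M and 77.9, 74.2 and 91.1 CPM at 5.6 M (-0.45, -0.90 to 0.01). CLASP1, which stabilises microtubule ends, had 5.08, 2.03 and 3.49 CPM at 6.6 M and 0.847, 2.36 and 1.74 CPM at 5.6 M (1.08, -0.11 to 2.28). TUBGCP5, of the gamma-tubulin ring complex, was the 1 member without overlap (against 3.4% of all genes higher without overlap), with 75.7, 82.1 and 78.4 CPM at 6.6 M and 55.5, 75.6 and 65.6 CPM at 5.6 M. Genes of the actin cortex had 36 of 38 tested, 19 above and 17 below 0 (median 0.00). ACTB, cytoplasmic actin, had 649, 468 and 541 CPM at 6.6 M and 552, 674 and 629 CPM at 5.6 M (-0.16, -0.55 to 0.22). Subunits of the actin-nucleating Arp2/3 complex lay on both sides. ARPC3 had 1.52, 3.25 and 2.93 CPM at 6.6 M and 8.89, 7.09 and 2.32 CPM at 5.6 M (-1.22, -2.29 to -0.15), and ARPC5L had 19.8, 15.03 and 14.6 CPM at 6.6 M and 12.7, 12.8 and 8.71 CPM at 5.6 M (0.50, -0.08 to 1.09).

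Mitochondrially encoded transcripts were the group farthest from 0, and library 3 at 6.6 M set most of that distance. All 11 of the mitochondrial genome's protein genes (respiratory chain and ATP synthase) in the table had a log2 fold change below 0, between -0.63 and -0.28, with a median of -0.46. Without library 3 at 6.6 M the median was -0.17. Between single nitrogen libraries of one group, the median of this list had an SD of 0.52 log2 units. ATP8, a subunit of the ATP synthase, had 465, 494 and 208 CPM at 6.6 M and 512, 886 and 404 CPM at 5.6 M (-0.63, -1.43 to 0.16). COX1, the core of cytochrome c oxidase, had 5930.2, 6370.3 and 3264 CPM at 6.6 M and 6921, 7184 and 6440.1 CPM at 5.6 M (-0.40, -0.95 to 0.15). COX1 was the 1 member whose libraries did not overlap, against 2.65% of all genes lower without overlap, and its highest library at 6.6 M lay just under its lowest at 5.6 M. All genes of the mitochondrial genome together took 4.92%, 4.57% and 2.41% of the counts at 6.6 M (3.96% ± 1.36, SD, n = 3), against 5.17%, 6.29% and 4.06% at 5.6 M (5.17% ± 1.11, n = 3). The difference of -1.21 percentage points gave p = 0.4 in an exact permutation test, two-sided, whose 20 splits allow no p below 0.1, and it was -0.43 points without library 3 at 6.6 M. Nuclear copies of mitochondrial genes can share reads with them, and how the authors counted such reads is not given here.

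Nuclear genes of the organelle lay on both sides of 0. Nuclear genes of oxidative phosphorylation had 55 of 56 tested, 30 above and 25 below 0 (median 0.03). COX8A, a small subunit of cytochrome c oxidase, had 10.7, 8.12 and 15.1 CPM at 6.6 M and 8.89, 8.98 and 4.06 CPM at 5.6 M (0.64, -0.04 to 1.33). NDUFB10, of complex I, had 3.05, 2.84 and 2.79 CPM at 6.6 M and 2.54, 4.25 and 9.29 CPM at 5.6 M (-0.84, -1.94 to 0.26). Mitochondrial dynamics, import and quality control had 33 of 37 tested, 18 above and 15 below 0 (median 0.02, and -0.05 without library 3 at 6.6 M). PPARGC1A, the coactivator that promotes mitochondrial biogenesis, had 120.0, 147 and 238 CPM at 6.6 M and 137, 112 and 99.3 CPM at 5.6 M (0.55, -0.16 to 1.25). Its highest value was in library 3 at 6.6 M. TIMM22, the pore of an inner membrane import complex, had 3.05, 5.69 and 5.16 CPM at 6.6 M and 8.05, 6.62 and 6.97 CPM at 5.6 M (-0.60, -1.46 to 0.27). Genes detected at 1 FPKM or more numbered 9019, 8677 and 8734 at 6.6 M (8810 ± 183, SD, n = 3), against 8899, 8719 and 8871 at 5.6 M (8830 ± 96.9, n = 3). Their difference of -19.7 genes was far inside the spread between libraries (exact permutation test, two-sided, p = 0.9).

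Genes of the stress pathways lay on both sides of 0, and none passed. Antioxidant defence had 28 of 42 genes tested, 17 above and 11 below 0 (median 0.04, and -0.03 without library 3 at 6.6 M). The 3 members without overlap were lower at 6.6 M, against 2.65% of all genes: TXN, MGST2 and GCLM. TXN, thioredoxin, had 27.4, 25.6 and 28.2 CPM at 6.6 M, in a narrow band, against 60.1, 37.3 and 29.02 CPM at 5.6 M, where the lowest library all but met it (-0.65, -1.24 to -0.06). GCLM, of the first step of glutathione synthesis, had 15.8, 18.3 and 22.3 CPM at 6.6 M and 23.7, 27.9 and 23.2 CPM at 5.6 M (-0.39, -0.86 to 0.08). MGST2, a membrane-bound glutathione transferase, had 199, 197 and 191 CPM at 6.6 M and 245, 203 and 213 CPM at 5.6 M (-0.17, -0.55 to 0.21). The abundant peroxidase PRDX1 had 716, 693 and 616 CPM at 6.6 M and 649, 648 and 632 CPM at 5.6 M (0.07, -0.33 to 0.47). SESN3, a sestrin that limits growth signalling under oxidative stress, had the smallest p on the higher side, with 21.4, 43.9 and 60.8 CPM at 6.6 M and 29.2, 33.6 and 31.9 CPM at 5.6 M (0.45, -0.25 to 1.15).

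Heat shock proteins and chaperones had 35 of 45 tested, 23 above and 12 below 0 (median 0.09), with 3 higher and 1 lower without overlap, against 3.4% and 2.65% of all genes. HSPA8, the constitutive heat shock protein of the HSP70 family, had 312, 363 and 284 CPM at 6.6 M and 323, 362 and 313 CPM at 5.6 M (-0.06, -0.44 to 0.33). HSP90AA1 had 2026, 1385 and 1194 CPM at 6.6 M and 1839, 1423 and 1698 CPM at 5.6 M (-0.11, -0.69 to 0.47). HSPA4L, a nucleotide exchange factor of HSP70, had 126, 222 and 194 CPM at 6.6 M and 139, 159.8 and 103 CPM at 5.6 M (0.43, -0.10 to 0.97). On the lower side CCT3, a subunit of the cytosolic chaperonin, had 59.98, 80.03 and 55.9 CPM at 6.6 M and 77.5, 83.7 and 77.2 CPM at 5.6 M (-0.29, -0.70 to 0.13). The unfolded protein response and folding in the endoplasmic reticulum had 32 of 36 tested, 18 above and 14 below 0 (median 0.05), and none was without overlap. DERL1, which helps to extract misfolded proteins from the reticulum, had 9.66, 7.72 and 11.3 CPM at 6.6 M and 20.3, 19.9 and 9.29 CPM at 5.6 M (-0.77, -1.42 to -0.13). CRELD2, a stress-induced resident of the reticulum, had 74.2, 41.8 and 52.2 CPM at 6.6 M and 41.1, 28.8 and 53.99 CPM at 5.6 M (0.44, -0.22 to 1.10).

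Apoptosis regulators had 18 of 36 tested, 8 above and 10 below 0 (median -0.07). CASP6, an executioner caspase, was present at 1073 FPKM at 6.6 M and 936 FPKM at 5.6 M. It had 1415, 1434 and 1378 CPM at 6.6 M and 1162, 1329 and 1209 CPM at 5.6 M without overlap, and a log2 fold change of 0.19 (-0.22 to 0.61). CASP6 was the 1 member without overlap, against 3.4% of all genes higher without overlap. TP63, the p53 relative that guards the genome of resting oocytes in mice, had 10.7, 6.91 and 10.9 CPM at 6.6 M and 20.3, 18.9 and 6.97 CPM at 5.6 M, with overlap (-0.70, -1.38 to -0.02). Autophagy and the proteasome had 64 of 72 tested, 27 above and 37 below 0 (median -0.02). Its members ATG4C and PSMD13 are given above. ATG4D, another processing protease of the same family, had 1.52, 0 and 0 CPM at 6.6 M and 4.24, 0.945 and 4.06 CPM at 5.6 M, which overlapped (-3.34, -5.57 to -1.10). The pair of ATG4 proteases thus had log2 fold changes of opposite sign, on few counts in the case of ATG4D.

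Genes that move water, osmolytes and ions bear most directly on how an oocyte meets a cryoprotectant. Of this list 24 of 52 were tested, 12 above and 12 below 0 (median -0.02), and none had libraries without overlap. AQP3, an aquaporin that also lets glycerol through, was expressed at 1.86 FPKM at 6.6 M and 1.497 FPKM at 5.6 M. It had 5.08, 3.25 and 1.81 CPM at 6.6 M and 1.69, 1.89 and 4.64 CPM at 5.6 M, and its interval of -1.39 to 1.78 around a log2 fold change of 0.20 leaves a difference in either direction undecided at this depth. AQP2, AQP5, AQP6, AQP9 and AQP10 had 0 counts in all 6 libraries, which allows up to 1.51, 1.15 and 0.406 CPM at 6.6 M, and 1.29, 1.31 and 1.68 CPM at 5.6 M (3 counts per library). AQP11, an aquaporin of intracellular membranes, had 2, 2 and 17 counts at 6.6 M and 4, 3 and 3 counts at 5.6 M. The 17 counts came from library 3 at 6.6 M, the deepest of the nitrogen libraries. CLIC4, a chloride intracellular channel protein, had 251, 339 and 299 CPM at 6.6 M and 259.6, 232 and 188 CPM at 5.6 M (0.39, -0.10 to 0.87). SLC12A2, a sodium, potassium and chloride cotransporter that restores volume in shrunken cells, had 100.1, 95.9 and 106 CPM at 6.6 M and 99.5, 77.5 and 75.5 CPM at 5.6 M (0.26, -0.15 to 0.67). Of the volume-regulated anion channel, the core subunit LRRC8A had 28.5, 16.7 and 10.7 CPM at 6.6 M and 17.8, 14.7 and 20.9 CPM at 5.6 M (0.01, -0.86 to 0.87). The partner subunit LRRC8D had 6.1, 8.94 and 5.72 CPM at 6.6 M and 12.7, 7.09 and 6.97 CPM at 5.6 M (-0.42, -1.12 to 0.29).

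Calcium handling and egg activation had 19 of 34 genes tested, 7 above and 12 below 0 (median -0.10). PPP3CC, a catalytic subunit of the calcium-activated phosphatase calcineurin, had 2.03, 0.812 and 1.395 CPM at 6.6 M and 2.96, 5.67 and 2.902 CPM at 5.6 M (-1.47, -2.71 to -0.22). It did not overlap between the concentrations, at under 2 FPKM in both. PPP3CC was the 1 member without overlap, against 2.65% of all genes lower without overlap. TRPM7, a channel that lets calcium and magnesium into the egg, had 7.62, 4.47 and 5.999 CPM at 6.6 M and 5.93, 4.73 and 0.581 CPM at 5.6 M (0.60, -0.47 to 1.67). ITPR1, the receptor through which stored calcium is released at fertilisation, had 36.6, 32.1 and 21.3 CPM at 6.6 M and 23.3, 23.6 and 35.99 CPM at 5.6 M (0.10, -0.44 to 0.64). Lipid and cholesterol metabolism had 39 of 59 tested, 19 above and 20 below 0 (median -0.01). PLIN2, which coats lipid droplets, had 285, 249 and 192 CPM at 6.6 M and 225, 204 and 196 CPM at 5.6 M (0.21, -0.18 to 0.60). ACACA, which commits acetyl-CoA to fatty acid synthesis, had 3.56, 9.75 and 7.39 CPM at 6.6 M and 12.3, 13.7 and 5.805 CPM at 5.6 M (-0.60, -1.34 to 0.13). ELOVL7, a fatty acid elongase, had 1.02, 4.87 and 5.16 CPM at 6.6 M and 2.96, 2.84 and 0 CPM at 5.6 M (0.96, -0.42 to 2.34). The list of glycolysis, pentose phosphate and citrate cycle genes had 34 of 54 tested, 22 above and 12 below 0 (median 0.05). LDHA, a lactate dehydrogenase subunit, was the 1 member lower without overlap (against 2.65% of all genes), at 97.6, 102 and 83.8 CPM at 6.6 M and 119, 132 and 111 CPM at 5.6 M (-0.35, -0.80 to 0.09). PDHB, of pyruvate dehydrogenase, had 10.7, 4.87 and 7.11 CPM at 6.6 M and 2.12, 7.09 and 2.902 CPM at 5.6 M (0.87, -0.05 to 1.79).

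The machinery that stores and destroys maternal mRNA lay on both sides of 0 too. Of maternal mRNA storage, decay and translation control, 60 of 67 were tested, 30 above and 30 below 0 (median 0.00), and the 4 members without overlap were all lower at 6.6 M, against 2.65% of all genes. They were BTG1, which stimulates deadenylation, the cytoplasmic polyadenylation factor CPEB3, the m6A reader YTHDF3 and the decapping cofactor DCP1A. BTG1 had 89.5, 82.5 and 87.7 CPM at 6.6 M and 128, 90.3 and 105 CPM at 5.6 M (-0.32, -0.71 to 0.07). CPEB3 had 87.9, 79.2 and 95.98 CPM at 6.6 M and 121, 96.4 and 101 CPM at 5.6 M (-0.27, -0.65 to 0.10). All 4 intervals spanned 0. PABPC1, the poly(A)-binding protein, had 342, 283 and 300.4 CPM at 6.6 M and 226, 182 and 317 CPM at 5.6 M, which overlapped (0.35, -0.06 to 0.77). CNOT7, a deadenylase, had 850.4, 969.6 and 1094 CPM at 6.6 M and 1023, 1082 and 812 CPM at 5.6 M, a log2 fold change of 0.00 (-0.47 to 0.47). Cytosolic ribosomal protein genes had 42 of 48 tested, 22 above and 20 below 0 (median 0.03), with none without overlap. Their processed copies in the genome can share reads, which makes single values uncertain. RPS7 had 123, 90.99 and 172 CPM at 6.6 M and 96.6, 73.7 and 133 CPM at 5.6 M, and RPS28 had 36.1, 27.6 and 45.9 CPM at 6.6 M and 46.2, 42.1 and 44.1 CPM at 5.6 M. Splicing factors had 60 of 64 tested, 20 above and 40 below 0 (median -0.05). TRA2B, a splicing activator, had 6.61, 7.72 and 6.696 CPM at 6.6 M and 11.4, 7.09 and 14.5 CPM at 5.6 M (-0.64, -1.27 to -0.01). SNRPA, of the U1 particle, had 20.3, 15.8 and 11.02 CPM at 6.6 M and 12.3, 11.3 and 8.13 CPM at 5.6 M (0.51, -0.33 to 1.35).

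The lists of chromatin and repair genes had medians close to 0. DNA methylation and histone modification had 51 of 73 tested, 28 above and 23 below 0 (median 0.03). DNMT3A, a methyltransferase that sets new DNA methylation, had 9.66, 5.69 and 6.696 CPM at 6.6 M and 16.5, 9.93 and 7.55 CPM at 5.6 M (-0.68, -1.39 to 0.03). DNMT1, which copies methylation after replication, had 717, 639 and 605 CPM at 6.6 M and 709, 629 and 668 CPM at 5.6 M (-0.03, -0.48 to 0.41). KDM3B, a histone demethylase, had 4.58, 4.47 and 2.51 CPM at 6.6 M and 2.12, 1.89 and 1.74 CPM at 5.6 M without overlap (0.88, -0.11 to 1.88). In this list 2 members were higher without overlap, against 3.4% of all genes. DNA repair had 69 of 81 tested, 37 above and 32 below 0 (median 0.02), with 4 higher and 2 lower without overlap, against 3.4% and 2.65% of all genes. RAD50, of the complex that senses broken ends, had 1258, 1452 and 1387 CPM at 6.6 M and 1018, 972 and 1312 CPM at 5.6 M (0.31, -0.11 to 0.73). MLH3, which acts at meiotic crossovers, had 21.9, 23.97 and 24.3 CPM at 6.6 M and 36.4, 40.2 and 20.3 CPM at 5.6 M (-0.47, -1.05 to 0.10). Immediate early genes, often induced by handling, had 15 of 30 tested, 5 above and 10 below 0 (median -0.06). GADD45B had 21.9, 14.2 and 16.7 CPM at 6.6 M and 12.7, 11.3 and 18.6 CPM at 5.6 M, and KLF4 had 20.8, 9.75 and 18.1 CPM at 6.6 M and 20.3, 20.3 and 22.6 CPM at 5.6 M. The 10 tested cumulus and granulosa markers lay 5 above and 5 below 0 (median -0.01, and -0.13 without library 3 at 6.6 M). Among them PTX3, a matrix protein that cumulus cells secrete, had 0, 1.22 and 0.558 CPM at 6.6 M and 2.96, 1.42 and 4.64 CPM at 5.6 M (-2.22, -3.93 to -0.52), and GATM had 4.07, 2.44 and 8.23 CPM at 6.6 M and 6.78, 2.36 and 1.74 CPM at 5.6 M. Of the blood and immune markers, 3 were tested, 1 above and 2 below 0 (median -0.10, and 0.35 without library 3 at 6.6 M). CD3E had 5.59, 3.66 and 2.65 CPM at 6.6 M and 1.69, 3.78 and 4.64 CPM at 5.6 M.

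A set of 12 transcripts known from these libraries to differ between vitrified and fresh oocytes was followed across the concentrations. Fresh values are a description, since the set was chosen for them. SNRPC, a U1 particle protein that helps to find the start of introns, had 356, 289.6 and 345 CPM at 6.6 M and 267, 334 and 365 CPM at 5.6 M, against 61.4, 77.9 and 99.03 CPM in fresh oocytes. Between the concentrations its log2 fold change was 0.04 (-0.38 to 0.45), so a doubling lay outside the interval. SLC7A3, a transporter of cationic amino acids, had 740.1, 630.5 and 757 CPM at 6.6 M and 474, 771 and 676 CPM at 5.6 M, against 230.4, 363 and 335 CPM in fresh oocytes (0.15, -0.28 to 0.58). UBE2C, which hands ubiquitin to the anaphase-promoting complex, had 766, 725 and 793 CPM at 6.6 M and 689, 679.7 and 741 CPM at 5.6 M, against 376, 217 and 409.6 CPM in fresh oocytes (0.11, -0.35 to 0.57). In each of these, all 6 nitrogen libraries lay above the 3 fresh ones while the concentrations overlapped. PRDX2, a cytosolic peroxidase, had 432, 421 and 343 CPM at 6.6 M and 339, 368 and 394 CPM at 5.6 M, against 179, 198 and 247 CPM in fresh oocytes. SEC61G, of the translocon, had 432, 431 and 702 CPM at 6.6 M and 396, 508 and 564 CPM at 5.6 M, against 232, 153 and 234 CPM in fresh oocytes. MRPL20, of the mitochondrial ribosome, had 1160.5, 1126 and 1309 CPM at 6.6 M and 858, 1029.5 and 1401 CPM at 5.6 M, against 475, 578 and 720.2 CPM in fresh oocytes. Their log2 fold changes between the concentrations were 0.12, 0.09 and 0.13 in that order. For ISCU, the scaffold of iron-sulphur cluster assembly, the step was larger, with 28.98, 39.8 and 41.3 CPM at 6.6 M and 29.2, 28.8 and 30.2 CPM at 5.6 M, against 18.7, 17.6 and 14.7 CPM in fresh oocytes (0.33, -0.13 to 0.79).

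The set also held transcripts whose mean was lower in both nitrogen groups than in fresh oocytes. FUBP3, a single-stranded nucleic acid binding protein, had 46.3, 35.7 and 39.5 CPM at 6.6 M and 51.7, 40.2 and 42.96 CPM at 5.6 M, against 72.8, 64.3 and 67.4 CPM in fresh oocytes (-0.16, -0.59 to 0.28). TMED7, a cargo protein of the early secretory pathway, had 170.3, 170.2 and 165 CPM at 6.6 M and 174, 189.5 and 174 CPM at 5.6 M, against 257, 216 and 263 CPM in fresh oocytes (-0.09, -0.41 to 0.23). TIFA, an adaptor of innate immune signalling, had 77.8, 85.3 and 91.5 CPM at 6.6 M and 69.9, 104 and 104 CPM at 5.6 M, against 226, 118 and 129 CPM in fresh oocytes (-0.12, -0.63 to 0.39). ND3, a complex I subunit of the mitochondrial genome, had 224, 198 and 100.2 CPM at 6.6 M and 213, 260.4 and 239 CPM at 5.6 M, against 603, 196 and 223 CPM in fresh oocytes, with a single high fresh library. The other fresh libraries lay within the range of the nitrogen ones for ND3. CWC15, a spliceosome component that was higher after vitrification, had 464, 556 and 623 CPM at 6.6 M and 439, 598 and 545 CPM at 5.6 M, against 262, 219 and 290.3 CPM in fresh oocytes (0.06, -0.34 to 0.45). The libraries of the concentrations overlapped for 11 of the 12, and for TMED7 the highest at 6.6 M was below the lowest at 5.6 M by 3.35 CPM. Of all genes tested, 2.65% were lower at 6.6 M without overlap.

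**Figure D5:**
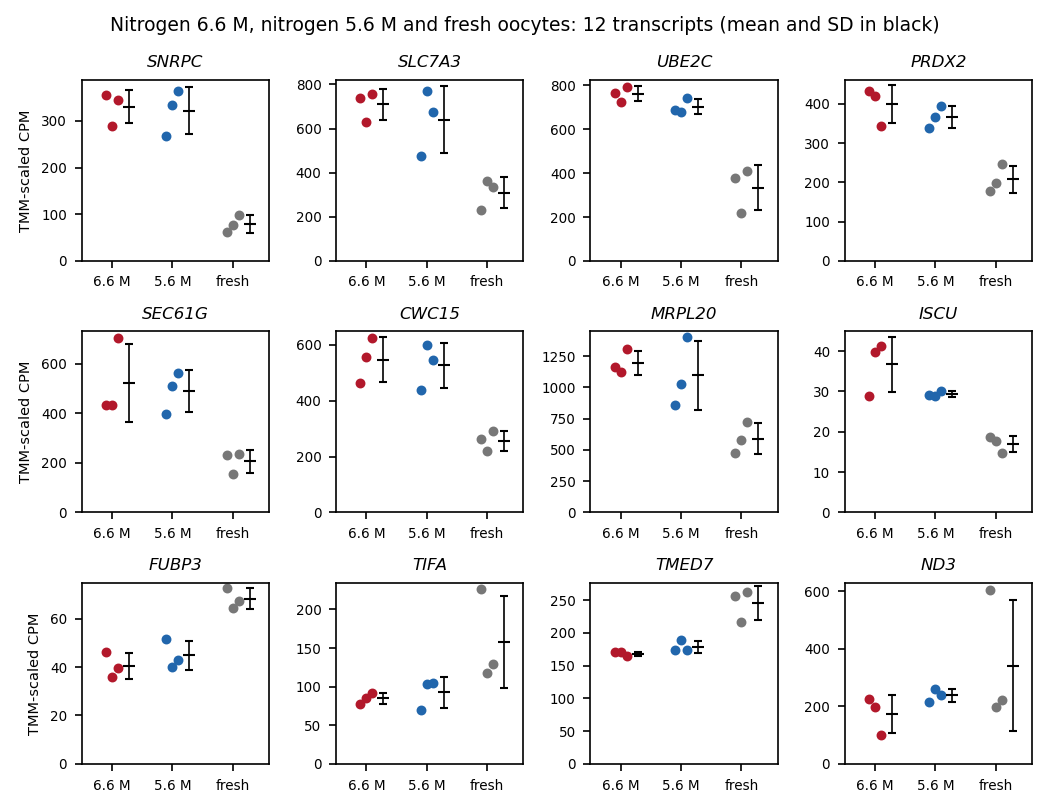
TMM-scaled CPM (vertical axes, each from 0) of 12 transcripts in oocytes vitrified in nitrogen with 6.6 M agent, with 5.6 M agent, and in fresh oocytes; points are libraries (3 per group), black marks the mean and SD. SNRPC shows the pattern most clearly, with the lowest nitrogen library at 267 CPM and the highest fresh one at 99.0 CPM.

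The same step in concentration was available for oocytes plunged into liquid helium, which is colder than liquid nitrogen, and the comparisons share no library. The helium libraries held 6346848 to 8569618 counts, more than every nitrogen library except library 3 at 6.6 M. Coolant and depth therefore largely cannot be told apart between these comparisons. In helium, 0 genes passed between 6.6 M and 5.6 M (169 genes, 2%, at an unadjusted p under 0.05 by edgeR; smallest adjusted p 0.9997). Whether the concentration difference itself depended on the coolant was tested as an interaction, and 0 genes passed (177 genes, 2.1%, at an unadjusted p under 0.05; smallest adjusted p 0.9996). DESeq2 called 0 genes for helium (175 at an unadjusted p under 0.05) and 0 for the interaction (182). Across the 8441 genes the log2 differences in nitrogen and in helium were nearly unrelated, as a description (Pearson r = 0.0488, Spearman rank correlation = 0.0296), and 51.6% of genes had the same sign in both. Genes are not independent replicates, so no p is attached. Among the 1096 genes at 100 FPKM or more, Pearson r was 0.102. The median standard error in nitrogen was 0.30, against a median absolute log2 fold change of 0.16. Error of that size pulls a correlation towards 0, so the correlation cannot decide whether the coolants differ. Values of some named genes are given as examples. BRAP had a log2 fold change of 0.84 ± 0.23 in nitrogen and -0.14 ± 0.21 in helium (SE, n = 3 libraries a group). MTHFD2L had 2.14 ± 0.82 in nitrogen and -1.24 ± 0.66 in helium. For TRAF3IP2 the values were -1.02 ± 0.31 in nitrogen and 0.13 ± 0.28 in helium. CD164 and ARHGAP18 were above 0 in both coolants, at 0.55 and 0.51 in nitrogen and 0.32 and 0.26 in helium. Since the nitrogen values chose these genes, their smaller size in helium is a description.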

How the data were processed

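The comparison used gene counts of oocyte libraries at 6.6 M and 5.6 M in nitrogen (3 each). Raw counts per gene and library were deposited unscaled, and FPKM values were deposited beside them, per the file headers. HISAT2 2.0.4, StringTie 1.3.0 and the build UMD3.1 are named in the submitters' processing notes; the use of strand and the treatment of multiply mapped reads are not given in the sources, so overlapping, antisense and near-identical genes may share counts. Of 24616 genes, 16294 had any count and 8441 passed edgeR's filterByExpr. One robust edgeR 4.0.16 quasi-likelihood fit (R 4.3.3) of all 15 libraries, TMM-scaled, gave the contrasts 6.6 M minus 5.6 M in nitrogen and in helium and their interaction, with Benjamini-Hochberg adjustment over 8441 genes and a threshold of 0.05. Standard errors and 95% intervals of log2 fold changes come from that fit and include the spread between libraries. Totals of the nitrogen libraries ran from 1790900 to 7392972 counts, those in helium from 6346848 to 8569618, and those of fresh oocytes from 1601519 to 2822837. The floor of 3 counts covers counting error only. Mitochondrial shares and numbers of genes were tested by exact two-sided permutation. DESeq2 1.42.0, other scalings, filters, a replicate block, thinning and leaving out each library were tried. The procedure was tested on simulated data. Pairs of libraries gave a chi-square of 4.49 to 25.7 per degree of freedom, and none was a copy. The genes named were the 12 of smallest p in each direction, as none passed, among those with a symbol, no overlap of libraries and a mean of 5 FPKM or more in one group. In each list the member of smallest p in each direction was named too. The groups compared, the lists and the set followed against fresh oocytes were chosen with earlier results of these data known. Some genes that the naming rule picks are not reported here.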

Additional observations from a re-analysis of the deposited data

How the results depend on the processing

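The count of 0 genes between 6.6 M and 5.6 M in nitrogen held with DESeq2, other scalings, a stricter filter, mitochondrial genes left out, the 6 nitrogen libraries alone, library 3 at 6.6 M thinned, and each library left out. Unadjusted p under 0.05 ran from 98 to 436 genes over all settings, the highest with no filter, and from 182 to 340 when 1 library was left out. With genes of low counts kept (16294 tested), 3 genes passed in nitrogen, 15 in helium and 2 in the interaction; the 3 were ENSBTAG00000016397, ENSBTAG00000023659 and MTHFD2L (log2 fold change 2.15, adjusted p 0.00843 by edgeR), and the cause was not tested. With a replicate block, 0 genes passed (142 at an unadjusted p under 0.05), and it changed no other call. Same-numbered libraries had deviations from their group means that correlated at -0.0065, 0.183 and -0.161, and not every library was closest to its own number, so the numbers were not taken as pairs. The block gave exact sign-flip p-values of 0.25 for the mitochondrial share and 0.75 for genes detected. Differences in genes detected ran from -124 to 46.8 when 1 library was left out, and lay above 0 in 4 of the 6 cases. Without library 3 at 6.6 M, list medians moved to 0.26 for tubulins, -0.055 for mitochondrial dynamics, -0.034 for antioxidant defence, -0.13 for cumulus markers and 0.35 for blood markers. Log2 fold changes of 9 single genes changed sign when 1 library was left out. Their ranges with 1 library left out were -0.20 to 0.47 for CD3E, -0.097 to 0.11 for SNRPC, -0.044 to 0.29 for SLC7A3, -0.18 to 0.21 for SEC61G, and -0.075 to 0.15 for CWC15. They were -0.033 to 0.32 for MRPL20, -0.44 to 0.19 for CD9, -0.52 to 0.014 for SKA2 and -0.24 to 1.36 for GATM. Over 92 single genes and 16 settings, 1399 of 1415 values kept direction and side of the threshold. These genes were picked from these same libraries, many because their libraries did not overlap, and none was near the threshold in the main fit. The choice thus largely set the outcome, and the count does not show how firm the single values are. Depth limits the low-count genes most.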

Other observations

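The genes below fall outside the naming rule and were picked after their values were seen. The gene ENSBTAG00000016397, which the table describes as a chromodomain Y-like protein (chromosome 23, 49451466 to 49608971 on UMD3.1), had 18.8, 69.1 and 10.6 CPM at 6.6 M, against 80.04, 66.2 and 71.98 CPM at 5.6 M. In helium it had 75.4, 19.4 and 63.04 CPM at 6.6 M and 72.1, 74.4 and 66.8 CPM at 5.6 M, and fresh oocytes had 106, 113 and 107 CPM. Values under 20 CPM, a limit set after they were seen, occurred in 3 of the 6 libraries at 6.6 M and in 0 of the 6 at 5.6 M. The other vitrified libraries lay between 63.0 and 80.0 CPM. The log2 fold change was -1.20 ± 0.49 in nitrogen, where the libraries overlapped, and -0.44 ± 0.45 in helium (SE, n = 3 each). Neither passed the test, and the difference over both coolants was not tested.

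SLC39A8, an importer of zinc and manganese, had 1.02, 1.22 and 1.26 CPM at 6.6 M and 5.08, 5.67 and 4.06 CPM at 5.6 M, a log2 fold change of -2.03 (-3.12 to -0.94). In helium SLC39A8 had 3.14, 3.78 and 2.26 CPM at 6.6 M and 3.48, 1.55 and 2.61 CPM at 5.6 M. PI4K2A, a kinase that makes phosphatidylinositol 4-phosphate on endosomes and the Golgi, had 8, 5 and 14 counts at 6.6 M and 0 counts in all 3 libraries at 5.6 M. Scaled for depth, PI4K2A had 4.07, 2.03 and 1.95 CPM at 6.6 M. Its pooled level at 6.6 M was 4.82-fold a floor of 3 counts over the 5.6 M group. That floor covers counting error only and leaves out the spread between libraries, and the fit gave no interval for PI4K2A. In helium PI4K2A had 2.57, 4.83 and 1.86 CPM at 6.6 M and 1.41, 1.68 and 4.25 CPM at 5.6 M. MTO1, which modifies mitochondrial tRNAs, had 7, 9 and 8 counts at 6.6 M and 0, 0 and 1 counts at 5.6 M. None of these 3 passed the test.

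ENSBTAG00000023659, which has no name or description in the table (chromosome 18, 24125366 to 24126333 on UMD3.1), had 4, 0 and 15 counts at 6.6 M, against 122, 5 and 5 counts at 5.6 M. Its log2 fold change of -3.64 came with 1 library at 5.6 M far above the others: in CPM it had 2.03, 0 and 2.09 at 6.6 M and 51.7, 2.36 and 2.902 at 5.6 M. In helium, FIGLA, a transcription factor of the oocyte that drives zona pellucida genes, had the smallest p between the concentrations, with 12.1, 18 and 25.3 CPM at 6.6 M and 9.03, 7.26 and 6.53 CPM at 5.6 M. In nitrogen FIGLA had 13.2, 6.5 and 12 CPM at 6.6 M and 11.9, 18.4 and 12.2 CPM at 5.6 M, and the interaction had an adjusted p of 0.9996 in edgeR's quasi-likelihood test.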
